A study of Xenopus laevis with 6 samples.

Results

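A set of 121 maternal genes of the frog *Xenopus laevis* had RNA that was both well above background in animal blastomeres and much lower in the vegetal pole of the same stage. They were chosen from 11303 genes that had at least 1 probe set with a single gene symbol, with the probe set of the highest mean log2 intensity standing for each gene. A gene entered the set when its mean log2 intensity was at least 1.5 higher in animal than in vegetal samples, a 2.83-fold difference, and when its mean animal intensity was at least 100. Both thresholds were met by 131 genes, of which 10, carrying 8 gene names, were left out by the definition of the set. The animal-to-vegetal differences of these genes are therefore what chose them, and they are given below as a description without a test.

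Animal blastomeres of 8-cell embryos made up the animal group (n = 3), and the vegetal group (n = 3) was the vegetal-most portion, cut from vegetal blastomeres of 8-cell embryos. The equatorial part of the vegetal blastomeres was discarded to widen the contrast and is in neither group. All embryos came from natural matings of 2 pairs of adults induced by hormone, were freed of jelly with cysteine and were fixed in ethanol and acetic acid before dissection, and neither group carried any other treatment. The study asked which transcripts are enriched at the animal side. The labels do not say whether the 3 samples of a group came from separate clutches or from pools, so the spread between them may be technical.

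At the 8-cell stage the embryo's own genome is still silent, and nearly all messenger RNA was made by the mother during oogenesis. Some maternal RNAs are anchored at the vegetal pole of the egg, among them the RNAs of the germ plasm and those that start endoderm and mesoderm formation, whereas the animal cells give rise mainly to epidermis and nervous system. The species is an allotetraploid, so that many genes exist as a pair of copies called homeologs, marked .L and .S for the long and the short chromosome of each pair.

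The animal blastomeres and vegetal pieces differed in the direction of known localized RNAs. All 11 tested probe sets of germ plasm genes and all 11 of vegetal cortex genes were higher in vegetal samples, with medians of -5.98 and -3.60 (log2, animal minus vegetal), and all 5 of reported animal RNAs were higher in animal samples, with a median of 1.01 (limma, adjusted p under 0.05 for each). Markers of follicle cells summed to intensities of 630.4 to 652.6 on animal and 1882 to 2154 on vegetal arrays, nearly all of it *cyp17a1.L*, and 4 of the 6 on the array, with *fshr.L* and *cyp19a1.L* among them, never exceeded the unspiked controls. Blood markers summed to 459.1 to 540.3 on animal and 639.7 to 698.2 on vegetal arrays, nearly all of it *slc4a1.L*, and 8 of the 11, most globins and *gata1* among them, never exceeded those controls. The ratio of the 3' to the 5' control probe set of *gapdh* was 4.18 ± 0.19 in animal and 7.35 ± 0.41 in vegetal samples (SD, n = 3 each), and that of the 3' to the middle actin probe set was 7.42 ± 0.47 in animal and 13.1 ± 1.5 in vegetal samples (SD, n = 3 each). The part of marker genes and of these ratios in the differences below was not tested. An intensity is a share of the labelled RNA on an array scaled to a common level, so it does not give the amount of an RNA per blastomere or piece.

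Every one of the 121 genes was higher on each animal array than on each vegetal array. The same holds for 31.1% of all 8026 genes tested, and 27.1% of these were called animal, that is, higher in animal samples at an adjusted p under 0.05 (limma with Benjamini-Hochberg adjustment), as were all 121. Genes higher in vegetal samples at that threshold are called vegetal below. The definition of the set used this contrast, so nothing is read from these counts. The median difference was 1.86 (log2, animal minus vegetal), or 3.62-fold, beside 0.03 for all tested genes, and the genes ranged from 1.504 to 6.62. The upper end comes from genes at background in vegetal samples, whose fitted values depend on the floor of 1 and are given as bounds below. Set at those bounds, they stay above 8-fold and leave the median where it is. Of the 121, 69 lay under 4-fold, 39 between 4-fold and 8-fold, and 13 at 8-fold or more. Their animal means ran from 100.2 to 1737 with a median of 255.7, and their vegetal means from 1.13 to 495.5 with a median of 68.6.

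**Figure D1:**
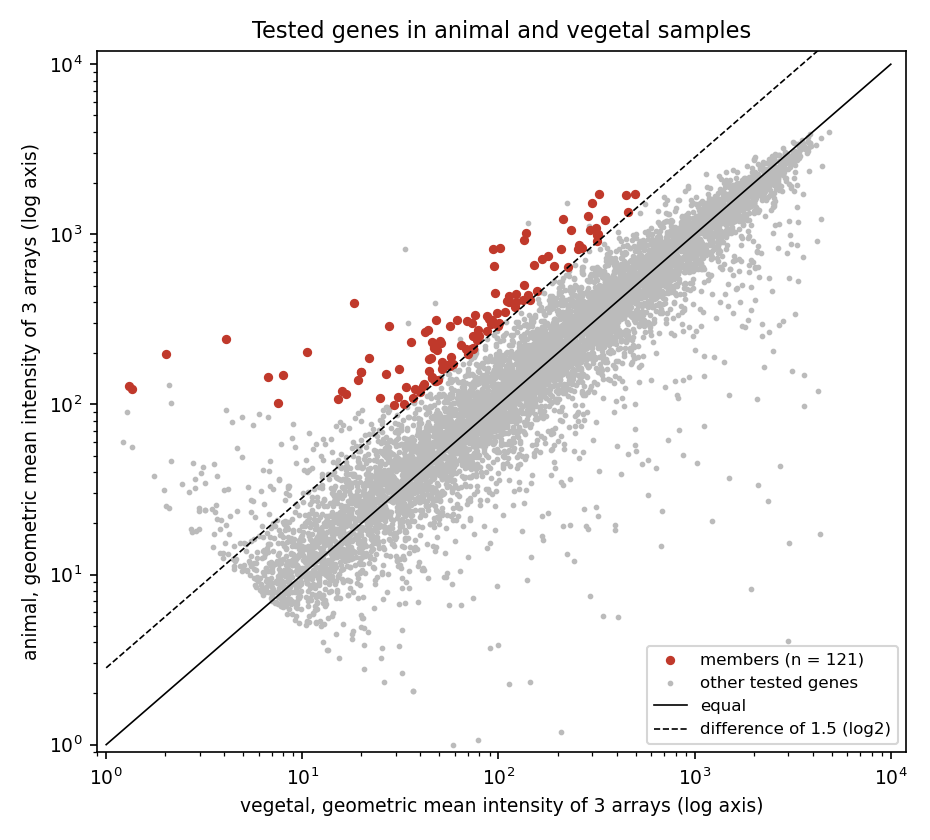
Geometric mean of the animal intensities (vertical axis, log scale) against that of the vegetal intensities (horizontal axis, log scale) for the 8026 tested genes, each point 1 gene over 3 arrays per group, with the 121 genes of the set in red, the solid line at equal intensity and the dashed line at a difference of 1.5. The red points lie on or above the dashed line, from an animal intensity near 100 upward, and most lie nearer to it than the few at the far left.

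Low vegetal signal was the exception. On the vegetal arrays 115 of the 121 genes exceeded the highest unspiked control probe set on all 3 arrays, 2 on 2 arrays, 1 on 1 array and 3 on none, and 39 had a vegetal mean of at least 100. Most of these RNAs were thus measured in the vegetal pole too, at a lower level. The spread between vegetal replicates was wider than that between animal replicates: the median SD of log2 intensity over the 121 genes was 0.106 in animal and 0.219 in vegetal samples. Over the 4826 tested genes with an animal mean of at least 100, it was 0.0966 in animal and 0.110 in vegetal samples. These were not matched on vegetal intensity, which is lower than the animal one in the set by definition. The part of intensity in the wider vegetal spread was not tested. The values just inside the difference threshold belonged to *slx4ip.S* at 1.504, *terf2.L* at 1.505 and *yif1b.S* at 1.505, and just outside lay *hpca.S* at 1.499, *fgfr4.S* at 1.497 and *sec63.L* at 1.497. By animal intensity, *vstm2l.L* at 100.2, *phyh.S* at 101.0 and *txndc12.S* at 102.1 stood just inside, and *mzt1.S* at 97.5, *septin12.S* at 97.4 and *ctps1.S* at 97.0 just outside.

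Of 6 genes whose vegetal signal reached the level of the unspiked controls on at least 1 array, 4 were at that level on most or all vegetal arrays. *tyw3.L*, whose product acts in the synthesis of wybutosine, a modified base of phenylalanine tRNA, read 183.1, 136.9 and 84 on the animal arrays, against 2.2, 0.6 and 0.6 on the vegetal arrays. *fut10.L*, a member of the fucosyltransferase family, read 205.4, 214.1 and 179.3 on the animal arrays, against 0.3, 1.8 and 4.6 on the vegetal arrays. *chrng.L*, the gamma subunit of the muscle acetylcholine receptor, read 108.1, 131 and 133.1 on the animal arrays, against 0.5, 2.5 and 0.9 on the vegetal arrays. All 9 of these vegetal readings lay at or under the unspiked controls, and all 9 animal readings lay far above. Since a signal under those controls gives only a bound, the folds were computed against the higher of the gene's own value and the highest unspiked control on each array: *tyw3.L* was at least 22.8-fold, *fut10.L* at least 35.3-fold and *chrng.L* at least 21.9-fold higher in animal samples.

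The amino acid transporter subunit *slc7a8.L*, a light chain of a transporter of neutral amino acids, read 247.1, 237.2 and 240.7 on the animal arrays, against 2.7, 2.9 and 8.7 on the vegetal arrays. Vegetal replicate 3 was the only one above the controls, and the animal signal exceeded the vegetal by at least 39.3-fold. *tstd2.S*, named for a thiosulfate sulfurtransferase domain, read 162.4, 131.8 and 144.4 on the animal arrays, against 6.7, 5.8 and 7.6 on the vegetal arrays, at least 21.9-fold higher in animal samples. *rgs4.S*, which switches off G-protein signals by speeding GTP hydrolysis, read 231.6, 212.3 and 174 on the animal arrays, against 19.5, 5.6 and 10.9 on the vegetal arrays, at least 19.1-fold higher. *tstd2.S* and *rgs4.S* were each above the controls on 2 of the 3 vegetal arrays.

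**Figure D2:**
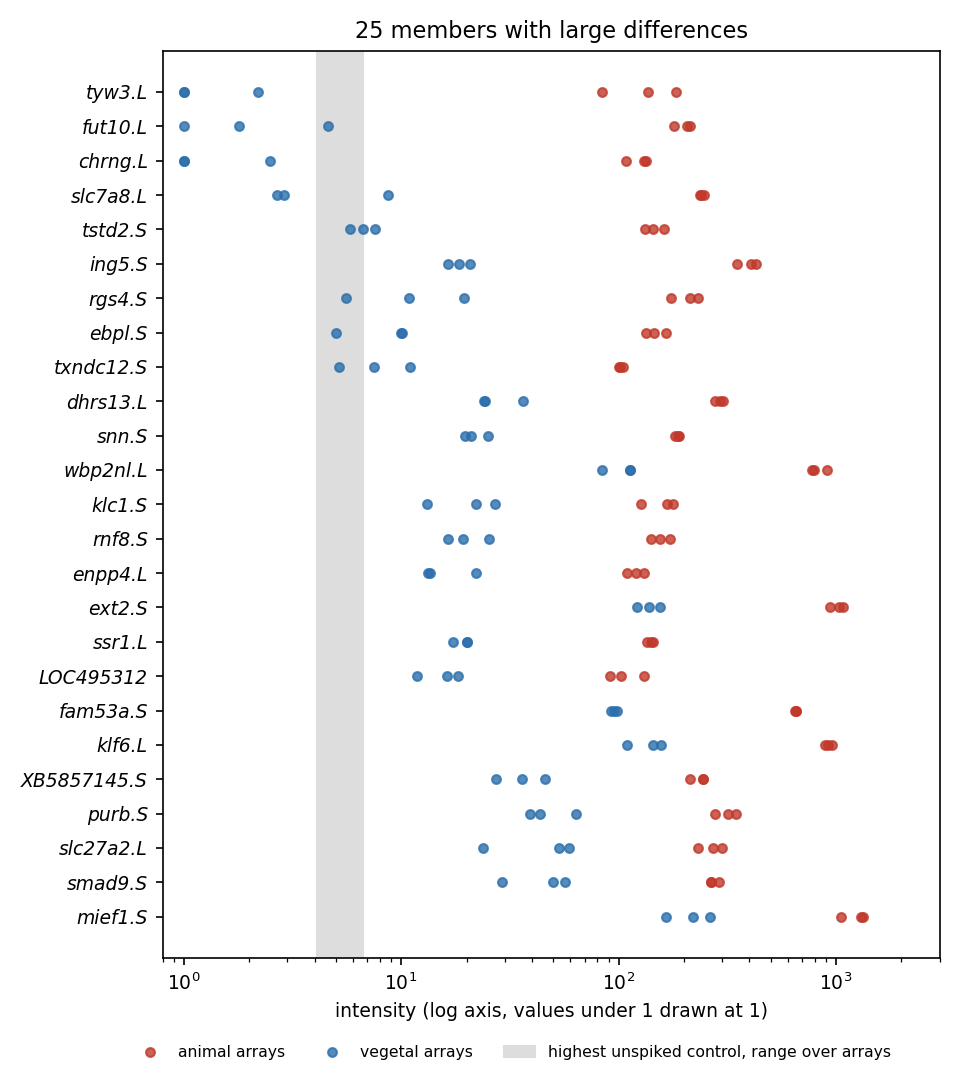
Intensity on each of the 6 arrays (horizontal axis, log scale, values under 1 drawn at 1) for 25 genes of the set with large differences, animal arrays in red and vegetal arrays in blue, with the grey band showing the range of the highest unspiked control over the arrays. The vegetal points of *tyw3.L*, *fut10.L* and *chrng.L* lie inside or left of the band, whereas those of *wbp2nl.L*, *ext2.S* and *klf6.L* lie near 100.

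Grouped by textbook role after their names were known, the genes fell into many groups, and none held more than 16. Membrane traffic, the endoplasmic reticulum and the lysosome took 16 genes, transcription factors and chromatin 15, redox and small-molecule enzymes 14, and RNA processing, translation and tRNA modification 11. Actin and adhesion had 5, receptors and signal transducers 9, mitochondria 8, transporters 7, DNA repair and telomeres 5, microtubules and division 5, glycan transfer 3 and protein folding and ubiquitin 3. *wbp2nl.L*, related to a sperm protein, stood alone, and 19 genes were given no role here. Group medians ran from 1.55 for DNA repair to 3.02 for the single fertilization gene. Besides the genes named for their size of difference, intensity or list, those given below as examples of a role were chosen after their values were seen.

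**Figure D3:**
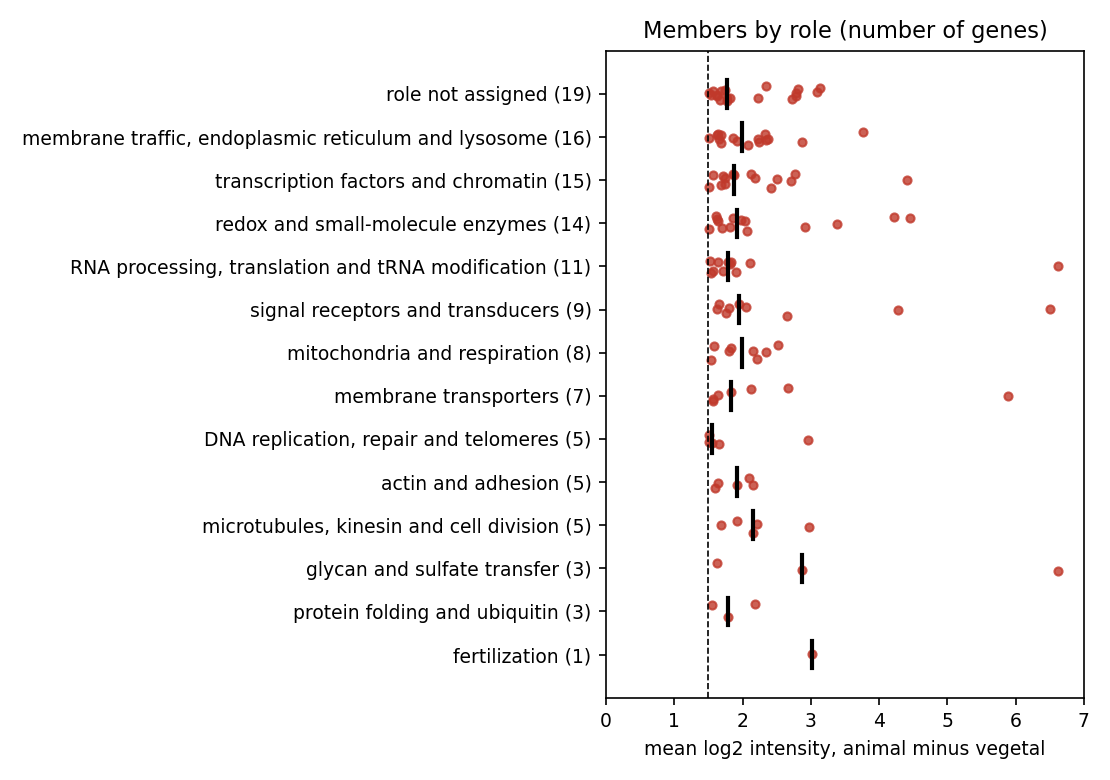
Difference of mean log2 intensity, animal minus vegetal (horizontal axis), for each of the 121 genes by role, each point 1 gene, the black bars group medians and the dashed line the threshold of 1.5. Points crowd between 1.5 and 3 in every role with more than 3 genes, and those beyond 5 are *tyw3.L*, *fut10.L*, *chrng.L* and *slc7a8.L*.

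Receptors and signal transducers came from several pathways. *smad9.S*, a receptor-regulated Smad that carries BMP signals into the nucleus, read 266.4, 290.8 and 265.8 on the animal arrays, against 56.9, 29 and 50.2 on the vegetal arrays, a difference of 2.65. *acvr2b.L*, a type II receptor for activin and related ligands, read 154, 130 and 151.9 on the animal arrays, against 46.1, 65.1 and 32.6 on the vegetal arrays, a difference of 1.65. As in all 121 genes of the set, the lowest animal value was above the highest vegetal value for both, from which nothing is read. Of 33 tested genes of the TGF-beta superfamily and its regulators, 12 were called animal, 11 vegetal and 10 neither, with a median of -0.0027. Here and in each list below, the counts are to be set beside 27.1% of all tested genes called animal and 23.7% called vegetal. Outside the set but in that list, *fstl3.L*, a secreted ligand antagonist, averaged 85.1 ± 15.4 in animal and 5.63 ± 3.78 in vegetal samples (SD, n = 3 each, limma adjusted p = 3.10e-07), with 1 vegetal array above the controls. The vegetal mean of *fstl3.L* thus gives only a bound, and its p-value rests in part on readings at or under the controls. *gdf1.S*, the maternal vegetal ligand also known as Vg1, averaged 122.7 ± 28.8 in animal and 4262 ± 443 in vegetal samples (SD, n = 3 each, limma adjusted p = 7.37e-13).

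Kinases and phospholipases of growth factor signalling were also present. *akt2.L*, a kinase downstream of phosphoinositide signals, averaged 989.2 ± 64.9 in animal and 319.3 ± 13.4 in vegetal samples (SD, n = 3 each). *plcg1.S*, the phospholipase C that many receptor tyrosine kinases activate, averaged 436.3 ± 28.0 in animal and 113.2 ± 10.5 in vegetal samples (SD, n = 3 each). *gskip.L*, a binding protein of the kinase GSK3 that acts in Wnt and insulin signalling, averaged 654.6 ± 26.0 in animal and 193.1 ± 11.6 in vegetal samples (SD, n = 3 each). Differences for this trio were 1.63, 1.95 and 1.76, in that order. *tnfaip1.L*, an adaptor of cullin ubiquitin ligases, read 1166.4, 1242.2 and 1245.6 on the animal arrays, against 331.4, 355.4 and 365.7 on the vegetal arrays, a difference of 1.80. No gene of the Wnt list was in the set: of 33 tested, 2 were called animal, 13 vegetal and 18 neither, with a median of -0.15. In the list of FGF, EGF, Eph and Notch genes, 9 of 26 were called animal, 9 vegetal and 8 neither, with a median of 0.05, and *fgfr4.S* missed the set's threshold at 1.497.

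*chrng.L* was the only gene of the set among ion channels and neurotransmitter receptors. In that list 4 of 23 tested genes were called animal, 4 vegetal and 15 neither, with a median of 0.13. *ano10.L*, a membrane protein of the anoctamin family, averaged 408.3 ± 43.4 in animal and 193.1 ± 28.7 in vegetal samples (SD, n = 3 each, limma adjusted p = 3.15e-06), and *p2rx4.L*, an ATP-gated channel, averaged 61.2 ± 7.4 in animal and 200.2 ± 4.5 in vegetal samples (SD, n = 3 each, limma adjusted p = 6.10e-08).

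Transporters of the set came from several families. *slc27a2.L*, which takes up long-chain fatty acids and joins them to coenzyme A, read 298.1, 270.5 and 233 on the animal arrays, against 59, 53 and 23.8 on the vegetal arrays, a difference of 2.66. *slc48a1.L*, a haem transporter, read 623.2, 666.4 and 695.1 on the animal arrays, against 180.9, 143.7 and 135.6 on the vegetal arrays, a difference of 2.12. *slc18a2.L*, which loads monoamines into vesicles, read 311.1, 322.2 and 320.9 on the animal arrays, against 101.8, 82.7 and 83.9 on the vegetal arrays, a difference of 1.84. As in all 121 genes of the set, no animal array reached down to a vegetal one, from which nothing is read. *slc36a4.L*, an amino acid transporter, differed by 1.64 and *slc25a44.S*, a mitochondrial carrier of branched-chain amino acids, by 1.57, with 1331, 1246.2 and 1512.5 on the animal arrays and 411.4, 503.7 and 463.2 on the vegetal arrays. *mfsd10.S*, of the major facilitator superfamily, differed by 1.56.

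Over all 143 tested solute carriers, 48 were called animal, 30 vegetal and 65 neither, with a median of 0.08. The heavy chain with which *slc7a8* pairs at the cell surface is encoded by *slc3a2*. *slc3a2.S* fell short of the set's intensity threshold, averaging 84.3 ± 7.7 in animal and 6.83 ± 1.58 in vegetal samples (SD, n = 3 each), a difference of 3.65 (limma adjusted p = 1.82e-08), with 2 of 3 vegetal arrays above the controls. The size of 3.65 thus rests in part on a vegetal reading that gives only a bound. In the other direction *slc12a9.L*, a relative of cation and chloride cotransporters, averaged 38.7 ± 14.1 in animal and 1497 ± 59.6 in vegetal samples (SD, n = 3 each, limma adjusted p = 2.09e-11).

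Both homeologs of smoothelin, an actin-binding protein first described in smooth muscle, were in the set, the only such pair within it. *smtn.L* read 1184.9, 1304.1 and 1348.3 on the animal arrays, against 304.5, 275.2 and 282 on the vegetal arrays, a difference of 2.15. *smtn.S* read 1557.2, 1757.8 and 1775.6 on the animal arrays, against 485.5, 488.4 and 374.6 on the vegetal arrays, a difference of 1.92. The probe sets of near-identical copies can bind both RNAs, so these may not be independent measurements. *ptk2.L*, the focal adhesion kinase, averaged 714.3 ± 44.0 in animal and 168.8 ± 26.0 in vegetal samples (SD, n = 3 each). *phldb1.S*, a scaffold of the cell cortex and of contacts with the basement membrane, averaged 1003 ± 76.5 in animal and 320.7 ± 27.3 in vegetal samples (SD, n = 3 each), and *dapk3.L*, a kinase of myosin light chain, differed by 1.60.

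A list matched by name held regulators of small GTPases, some such GTPases themselves and RGS genes, which act on G-protein signals. Of its 99 tested genes, 31 were called animal, 17 vegetal and 51 neither, with a median of 0.16. The set held 4 genes of this list, the RGS gene *rgs4.S* among them. *rap1gap.L*, which inactivates Rap GTPases, averaged 39.5 ± 4.3 in animal and 3.70 ± 3.18 in vegetal samples (SD, n = 3 each, limma adjusted p = 3.98e-05), with no vegetal array above the controls, and was under the intensity threshold. The vegetal values of *rap1gap.L* thus give only a bound, and its p-value rests on vegetal readings at or under the controls. *rassf6.L*, of the Ras association domain family, averaged 19.2 ± 1.5 in animal and 215.0 ± 36.8 in vegetal samples (SD, n = 3 each, limma adjusted p = 4.61e-10). In the actin list 25 of 77 were called animal, 18 vegetal and 34 neither, with a median of 0.11. Junction genes, cadherins and integrins had no gene in the set: 8 of 51 were called animal, 24 vegetal and 19 neither, with a median of -0.24. The median of all tested genes was 0.03 in the deposited values, -0.24 with arrays centred on their medians and 0.27 with arrays set to the spiked controls, so list medians of this size depend on the scaling. Over all tested genes, 2177 animal and 1905 vegetal calls as deposited became 1192 and 3283 with median centring. Set to the spiked controls, they became 2785 and 824, so the balance of calls within a list can depend on the scaling too.

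Transcription factors and chromatin proteins gave 15 genes. *ing5.S*, a subunit of histone acetyltransferase complexes, read 426.5, 351.7 and 405.4 on the animal arrays, against 18.4, 20.8 and 16.4 on the vegetal arrays, a difference of 4.41. *klf6.L*, a zinc finger factor of the Krüppel-like family, read 921.8, 894.1 and 962.3 on the animal arrays, against 109.8, 143.7 and 157 on the vegetal arrays, a difference of 2.77. *cdk2ap1.S*, which binds the kinase Cdk2 and is a subunit of the NuRD remodelling complex, read 1670.4, 1706.1 and 1822.6 on the animal arrays, against 348.3, 324.7 and 306.5 on the vegetal arrays, a difference of 2.41. For *ing5.S* the difference was the largest of any gene of the set that was above the controls on all 6 arrays.

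*purb.S*, a protein that binds purine-rich single-stranded DNA and RNA, differed by 2.71, and *meis1.S*, a homeobox partner of Hox and Pbx factors, by 2.51. *meis1.S* read 132.6, 165.4 and 157.2 on the animal arrays, against 20.4, 31 and 29.7 on the vegetal arrays. *vsx1.L*, a paired-like homeobox factor known from the retina, averaged 231.6 ± 19.7 in animal and 50.8 ± 0.8 in vegetal samples (SD, n = 3 each). *hmga2.L*, an architectural chromatin protein, differed by 1.75, *xbp1.L*, a leucine zipper factor of the unfolded protein response, by 1.71, and *arid3a.S*, an AT-rich interaction domain factor, by 1.51. *baz1b.S*, a bromodomain protein of remodelling complexes, averaged 449.1 ± 26.3 in animal and 123.3 ± 17.6 in vegetal samples (SD, n = 3 each).

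Most homeobox, forkhead, Sox, zic, grainyhead and POU genes were too dim to be tested: of 147 on the array, 94 never exceeded the unspiked controls and 34 were tested. Of these 34, 12 were called animal, 10 vegetal and 12 neither, with a median of -0.05, and *meis1.S* was the only gene of the set in this list, which was matched by name and does not hold *vsx1.L*. *sox9.S*, a factor of neural crest and cartilage, averaged 34.7 ± 14.0 in animal and 9.43 ± 5.77 in vegetal samples (SD, n = 3 each, limma adjusted p = 0.000741), with 2 of 3 vegetal arrays above the controls. In the list of cyclins, their kinases and inhibitors, 18 of 66 were called animal, 18 vegetal and 30 neither, with a median of -0.07, and *cdk2ap1.S* was the gene of the set.

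The RNA group ran from splicing to translation. *esrp1.L*, a splicing regulator of epithelial cells, read 492.5, 516.8 and 504.8 on the animal arrays, against 110.5, 144.3 and 152.5 on the vegetal arrays, a difference of 1.91. *srsf12.L*, a serine and arginine rich splicing protein, read 933.4, 1050.5 and 789 on the animal arrays, against 317.6, 320.1 and 318.4 on the vegetal arrays, a difference of 1.53. *nova1.L*, a splicing regulator known from neurons, read 141.6, 130.5 and 100.7 on the animal arrays, against 45.8, 36.4 and 31.7 on the vegetal arrays, a difference of 1.71. In the splicing list 21 of 52 were called animal, 9 vegetal and 22 neither, with a median of 0.10, beside 27.1% of all tested genes called animal and 23.7% vegetal. *srsf6.L*, another serine and arginine rich protein, averaged 475.3 ± 48.3 in animal and 219.5 ± 23.3 in vegetal samples (SD, n = 3 each, limma adjusted p = 7.17e-07), and *khdrbs1.S*, the RNA-binding protein Sam68, averaged 254.4 ± 26.0 in animal and 986.9 ± 31.3 in vegetal samples (SD, n = 3 each, limma adjusted p = 2.16e-10).

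*eif4e3.S*, a cap-binding relative of the initiation factor eIF4E, read 1631.8, 1720.5 and 1857.7 on the animal arrays, against 515.6, 494.2 and 476.6 on the vegetal arrays, a difference of 1.81. *eif3a.S* and *eif3k.L*, subunits of the initiation factor eIF3, differed by 1.83 and 1.64. The homeolog *eif3a.L* was brighter and called vegetal, with means of 2443 in animal and 2800 in vegetal samples, beside 347.0 and 98.3 for *eif3a.S*. *larp4.S*, which binds poly(A) tails and stabilises messenger RNA, averaged 210.6 ± 29.8 in animal and 48.7 ± 3.1 in vegetal samples (SD, n = 3 each). *tyw3.L* was the only one of the set among 46 tested tRNA modification genes, of which 10 were called animal, 12 vegetal and 24 neither, with a median of 0.03. *pus1.L*, a pseudouridine synthase, averaged 24.1 ± 7.2 in animal and 5.50 ± 0.52 in vegetal samples (SD, n = 3 each, limma adjusted p = 0.000106), with 1 vegetal array above the controls. The vegetal mean of *pus1.L* thus gives only a bound, and its p-value rests in part on readings at or under the controls.

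The membrane traffic group spanned translocation into the endoplasmic reticulum, the Golgi complex, endosomes and lysosomes. *ssr1.L*, a subunit of the translocon-associated complex, read 140.4, 135 and 144.5 on the animal arrays, against 20, 20.1 and 17.4 on the vegetal arrays, a difference of 2.87. *tmem192.L*, a lysosomal membrane protein, read 1405.8, 1454.4 and 1718.3 on the animal arrays, against 284.4, 330 and 291.1 on the vegetal arrays, a difference of 2.34. *cog3.S*, a subunit of a Golgi tethering complex, read 922.1, 1092.4 and 1162.6 on the animal arrays, against 269.4, 326.4 and 280.7 on the vegetal arrays, a difference of 1.86. *chmp4c.L* and *chmp3.S*, subunits of the membrane-cutting ESCRT complex that also acts at the end of cell division, differed by 2.37 and 1.68. *txndc12.S*, a thioredoxin-like protein of the endoplasmic reticulum, differed by 3.76, with 104.3, 100.6 and 101.5 on the animal arrays and 5.2, 7.5 and 11 on the vegetal arrays.

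Glycan enzymes were few in the set. *ext2.S*, which with its partner *ext1* polymerises heparan sulfate, read 935.7, 1076.3 and 1027.4 on the animal arrays, against 138.8, 154.7 and 121.9 on the vegetal arrays, a difference of 2.88. *chst10.L*, the sulfotransferase that makes the HNK-1 epitope in mammals, differed by 1.62. Of 65 tested glycosyltransferases, 14 were called animal, 22 vegetal and 29 neither, with a median of -0.10. Among those outside the set, *alg10.S*, an enzyme of the lipid-linked precursor of N-glycans, averaged 255.8 ± 16.8 in animal and 107.3 ± 8.6 in vegetal samples (SD, n = 3 each, limma adjusted p = 3.90e-07), and *alg11.L*, an earlier enzyme of the same pathway, averaged 54.1 ± 5.8 in animal and 156.7 ± 18.8 in vegetal samples (SD, n = 3 each, limma adjusted p = 6.91e-07).

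Mitochondrial genes included *mief1.S*, an outer membrane receptor for the fission GTPase Drp1, with 1050.3, 1310 and 1329.7 on the animal arrays, against 165, 264.2 and 219.9 on the vegetal arrays, a difference of 2.53. *agk.S*, an acylglycerol kinase of the mitochondrial inner membrane, read 1071.2, 1064.9 and 1151.7 on the animal arrays, against 322.7, 346 and 281.1 on the vegetal arrays, a difference of 1.80. *ndufa6.S*, a subunit of respiratory complex I, differed by 2.15, and *higd1a.L*, a hypoxia-induced mitochondrial protein, by 1.83. Every one of these, like all 121 genes of the set, had its lowest animal array above its highest vegetal array, from which nothing is read. Among enzymes, *ebpl.S*, a relative of a sterol isomerase, read 166, 133.9 and 146.3 on the animal arrays, against 5, 10 and 10.1 on the vegetal arrays, a difference of 4.22. *dhrs13.L*, a short-chain dehydrogenase, read 301.2, 292.4 and 277.2 on the animal arrays, against 24.1, 24.4 and 36.3 on the vegetal arrays, a difference of 3.39. The peroxide-removing enzymes *gpx4.L* and *prdx1.S* differed by 1.70 and 1.64, the glyoxalase *glo1.L* by 1.86, and *ctps2.L*, which makes CTP, by 2.07.

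The 5 genes of microtubules and division had a median difference of 2.15, and the 5 of DNA replication, repair and telomeres one of 1.55. *klc1.S*, a light chain of kinesin-1, averaged 157.7 ± 26.9 in animal and 20.8 ± 7.0 in vegetal samples (SD, n = 3 each), a difference of 2.97. *rnf8.S*, a ubiquitin ligase recruited to DNA breaks, averaged 156.2 ± 15.3 in animal and 20.3 ± 4.5 in vegetal samples (SD, n = 3 each), a difference of 2.96. *nusap1.S*, a protein of the mitotic spindle, differed by 2.21, *tbca.S*, a tubulin-folding cofactor, by 1.92, and *cdca5.L*, which protects cohesion of sister chromatids, by 1.68. *rfc5.L*, a subunit of the clamp loader of replication, differed by 1.65, *exo1.S*, an exonuclease of mismatch repair and end resection, by 1.55, and the telomere protein *terf2.L* by 1.51. *hsph1.S*, a nucleotide exchange factor for Hsp70, read 976.3, 1088.4 and 1139.8 on the animal arrays, against 238.3, 232.5 and 235.7 on the vegetal arrays, a difference of 2.18.

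The remaining named genes had no common role. *wbp2nl.L*, named after a WW-domain binding protein of the mammalian sperm head, read 779.2, 795.8 and 909.1 on the animal arrays, against 83.7, 112.4 and 112.4 on the vegetal arrays, a difference of 3.02. *snn.S*, which encodes the small membrane protein stannin, read 181, 189.3 and 188.5 on the animal arrays, against 25.2, 21 and 19.7 on the vegetal arrays, a difference of 3.09. *fam53a.S* read 647.9, 654.8 and 656.3 on the animal arrays, against 95, 98.2 and 92 on the vegetal arrays, a difference of 2.78, with narrow ranges in both groups. *enpp4.L*, a membrane-bound phosphodiesterase of nucleotides, differed by 2.92.

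The other lists held no gene of the set, although 2 mitotic kinase and checkpoint genes and 2 nuclear receptor genes met both thresholds and were left out by name. Mitotic kinases and checkpoint genes had 17 of 49 called animal, 12 vegetal and 20 neither, with a median of -0.02. Nuclear receptors had 6 of 23 called animal, 6 vegetal and 11 neither, with a median of -0.01. Haem synthesis genes had 2 of 9 called animal, 3 vegetal and 4 neither, with a median of -0.29, and acyl-CoA and fatty acid enzymes had 15 of 38 called animal, 9 vegetal and 14 neither, with a median of -0.03. Histones and chromatin assembly genes had 8 of 26 called animal, 2 vegetal and 16 neither, with a median of -0.00067. These shares, like those of the lists above, are to be set beside 27.1% and 23.7% of all tested genes called higher in animal and in vegetal samples.

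Homeologs of these genes mostly did not show a difference of the same size. Of the 121, 65 were .L copies, 52 were .S copies and 4 had no suffix, so that 53.7% were .L and 43.0% .S, beside 57.2% and 39.8% of all tested genes. The array carried the homeolog of 44 of the 121 genes, and 38 of these homeologs were tested, 2 of them being the smoothelin pair. Of the other 36, 15 were called animal, 8 vegetal and 13 neither (limma, adjusted p under 0.05), which is 41.7% called animal beside 27.1% of all genes. The differences of these 36, each by the probe set with the highest mean log2 intensity, had a median of 0.16. Among them *ate1.S* alone reached 1.5, with 26.1, 27.6 and 20.1 on the animal arrays, against 4.5, 3.9 and 2.4 on the vegetal arrays. None of these vegetal values was above the controls, so *ate1.S* was at least 4.33-fold higher in animal samples. Of the 6 homeologs left untested for their low mean intensity, *ak3.S* differed by 2.11 and *cdca5.S* by 1.55, the rest by less than 1.5. Both were dim, with 1 vegetal array above the controls, so the sizes of these 2 differences rest on vegetal readings that give only a bound. How many homeologs reach 1.5 also depends on the choice of probe set. Another probe set of *larp4.L*, counted at 0.58, differed by 2.92, and others of *tnpo1.L*, counted at 1.32, by 1.98 and 1.64. Since the members of the set were selected for a large difference, a smaller one in a second copy is in part fixed by the selection, and probe sets that also bind the other copy would make the copies look alike.

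**Figure D4:**
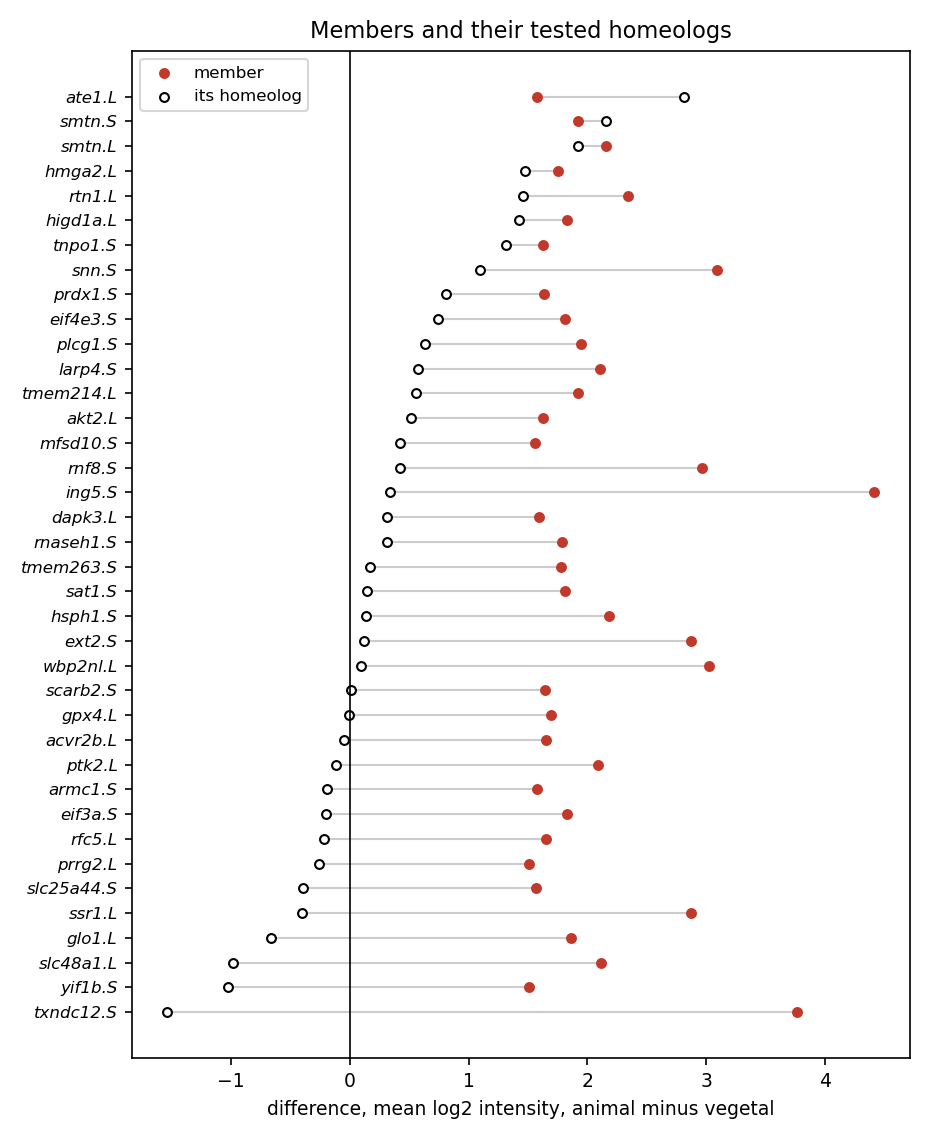
Difference of mean log2 intensity, animal minus vegetal (horizontal axis), of each gene of the set with a tested homeolog (filled red) and of that homeolog (open), joined by a line, 1 row per gene. Open points spread around 0, from -1.53 for the homeolog of *txndc12.S* upward, and the point farthest right, for the homeolog of *ate1.L*, rests on vegetal values at or under the unspiked controls, while all filled points lie at 1.5 or more.

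*txndc12.L* was on the opposite side from its homeolog, with 304.6, 273.5 and 320.9 on the animal arrays, against 907.3, 844.4 and 843.6 on the vegetal arrays, a difference of -1.53 beside 3.76 for *txndc12.S*. *slc48a1.S* was likewise lower in animal samples, with 413, 356.8 and 418.5 on the animal arrays, against 727.5, 764.4 and 857.4 on the vegetal arrays, a difference of -0.98 beside 2.12 for *slc48a1.L*. *yif1b.L* had a difference of -1.02 beside 1.51 for *yif1b.S*, both copies encoding a protein of traffic between the endoplasmic reticulum and the Golgi complex. *ssr1.S* averaged 113.6 in animal and 150.2 in vegetal samples, a difference of -0.40 beside 2.87 for *ssr1.L*. *slc25a44.L* had a difference of -0.39 beside 1.57 for *slc25a44.S*. In these pairs the probe sets that stood for the copies were on opposite sides, with no overlap between the groups in either. For *txndc12.S* this rests on 1 of 2 probe sets, and the other, a dim one described below, was on the vegetal side.

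Other homeologs were nearly even between the poles. *wbp2nl.S* read 1163.1, 1198.6 and 1146.1 on the animal arrays, against 1186.7, 1126.6 and 986.5 on the vegetal arrays, a difference of 0.09 with overlapping groups, beside 3.02 for *wbp2nl.L*. *acvr2b.S* read 991, 956.8 and 1028.8 on the animal arrays, against 991.2, 1009.5 and 1079.5 on the vegetal arrays, a difference of -0.05 beside 1.65 for *acvr2b.L*. *ptk2.S* had a difference of -0.12 beside 2.09 for *ptk2.L*, *ext2.L* one of 0.12 beside 2.88 for *ext2.S*, and *ing5.L* one of 0.34 beside 4.41 for *ing5.S*. The gap between a gene of the set and its homeolog was at least 1 for 30 of the 36. Nearer pairs were *hmga2*, with 1.75 for .L and 1.48 for .S, *tnpo1*, a nuclear import receptor, with 1.62 for .S and 1.32 for .L, and *higd1a*, with 1.83 for .L and 1.42 for .S. *hmga2.S* was dim, with means of 12.6 ± 3.1 in animal and 5.23 ± 3.02 in vegetal samples (SD, n = 3 each). Only 2 of its vegetal arrays were above the controls, so its 1.48, and the closeness of this pair, rest in part on a reading that gives only a bound.

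For 34 of the 121 genes the array had more than 1 probe set, and these give a second reading of the same transcript pool from the same 6 arrays. Of 64 such further probe sets, 43, in 28 genes, were above the unspiked controls on all 3 arrays of at least 1 group. Of these 43, 40 were on the animal side and 3 on the vegetal side, 22 had a difference of at least 1.5, and the median was 1.54. Of the 40 that were tested, 27 were called higher in animal samples, or 67.5%, beside 31.7% of the 19523 probe sets tested, 1 was called higher in vegetal samples and 12 in neither direction. These are the same contrast in the same samples and so are not independent of the choice of genes.

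Agreement was close for some genes and poor for others. *eif4e3.S* had further probe sets at 1.86 and 4.42 beside its own 1.81, *mief1.S* at 0.79, 3.79 and 3.98 beside 2.53, and *arid3a.S* at 1.54, 1.60 and 2.31 beside 1.51. *yif1b.S*, which barely met the difference threshold, had a second probe set that read 641.2, 640.8 and 583.6 on the animal arrays, against 4.5, 0.7 and 2.2 on the vegetal arrays, with no vegetal array above the controls, so that it was at least 110-fold higher in animal samples. *rgs4.S* had a second probe set with 101.1, 89.5 and 94.5 on the animal arrays, against 2.3, 2.2 and 2.9 on the vegetal arrays, at least 16.8-fold higher. For *yif1b.S*, then, the second probe set differed more than the one that stood for the gene. For *rgs4.S* the bounds, at least 16.8-fold beside at least 19.1-fold, do not tell which probe set differed more.

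The opposite was seen for *exo1.S*, whose second probe set read 74.4, 37 and 36.2 on the animal arrays, against 269.9, 271.8 and 235.6 on the vegetal arrays, a difference of -2.48 beside the 1.55 that placed it in the set. Averaged over all its probe sets, *exo1.S* was at -0.41, on the vegetal side. A second, dim probe set of *txndc12.S* read 0.2, 0.2 and 2.4 on the animal arrays, none above the controls, against 10.1, 12 and 8.2 on the vegetal arrays, so its direction also differed from that of the probe set in the set. *klf6.L* had 3 further probe sets at -0.12, 0.02 and 1.64 beside its own 2.77, *eif3a.S* had further probe sets at 0.01 and 0.17 beside 1.83, and *purb.S* had measured ones at 0.11, 0.52, 1.33, 2.60 and 3.88 beside 2.71. Which transcript each probe set detects was not analysed here.

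Membership moved with the scaling of the arrays more than with any single array. With each of the 6 arrays left out in turn, 117 to 133 genes met both thresholds, 110 to 118 of them in the set, and 99 of the 121 met them in all 6 cases. Quantile normalization left 97 genes, 96 of them in the set. Centring each array on its median left 71, all in the set, and scaling to spiked controls gave 190, which took in all 121. The 71 were also those that met the thresholds under all 3 other scalings. All 121 kept a positive difference under each scaling and without each array. With an array left out this was fixed, since each of these genes was higher on every animal array than on every vegetal array. Median centring and spiked-control scaling move all genes by nearly the same amount, which was small beside the difference threshold. Nothing is therefore read from these signs.

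**Figure D5:**
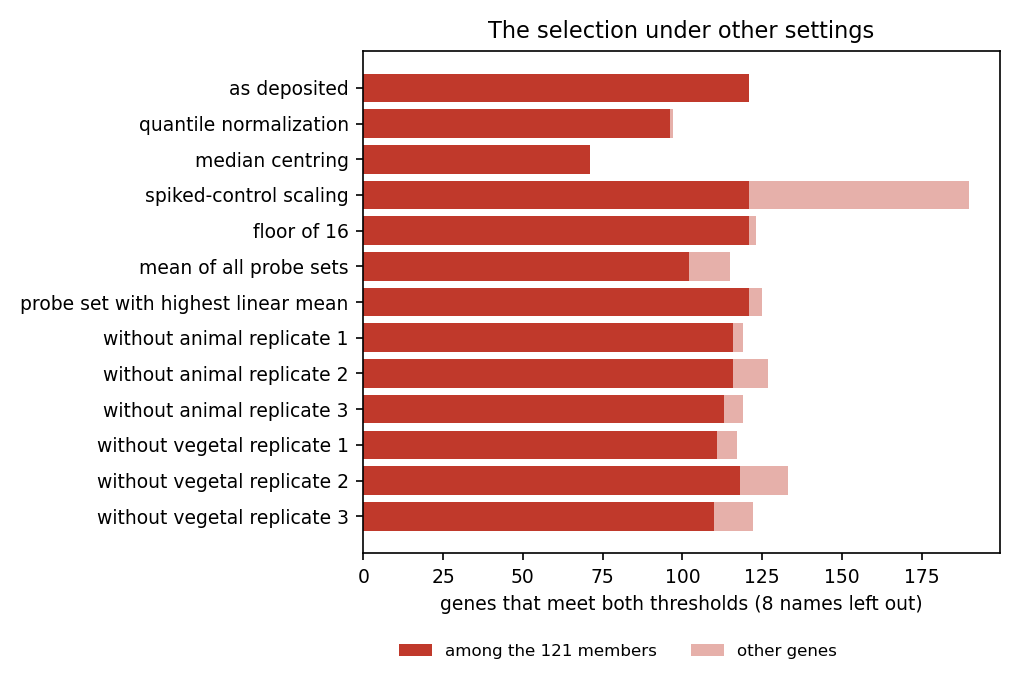
Number of genes that met both thresholds (horizontal axis) as deposited and under each alternative, with the part that is among the 121 genes marked apart from the rest. The count runs from 71 after median centring to 190 after scaling to spiked controls, and lies between 117 and 133 without any 1 array.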

How the data were processed

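Amplified and biotin-labelled RNA was hybridized to 6 arrays of 1 colour, 3 animal and 3 vegetal, per the labels. For each probe set the deposited table has a linear intensity on every array, which the authors made with GCOS software, per the submitters' processing notes. Neither its version nor its background correction nor detection calls are given. The 2% trimmed mean was 150.0 on every array, so no further scaling was applied. Values under 1 were set to 1 and log2 of the deposited intensities was taken.

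Of 32635 probe sets, 96 were controls, 59 of them unspiked. Of the other 32539, 15495 had 1 gene symbol, 279 several and 16765 none in the platform annotation supplied here, which can be old. The gene IDs of 15384 matched the RefSeq table of Xenopus_laevis_v10.1, which changed 2 symbols. No build is named in the files, so no coordinates are given, and no sequences are printed. The dimmest 40% of probe sets (mean intensity under 6.94) were left out, leaving 19523, with 8026 genes. Groups were compared two-sided in R 4.3.3 with limma 3.58.1 (lmFit, then eBayes with its trend option). P-values were adjusted by Benjamini-Hochberg over all probe sets tested, with a threshold of 0.05, and measure only the spread between these samples. All 6 arrays entered without a block. The fit was tested on simulated data.

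The set and the 18 gene lists, each given in the report, were chosen with earlier results of these data known. Named genes are those with the largest differences or animal intensities, those in a list, at the vegetal background, with the largest gap to a homeolog or second probe set, or at a threshold, and up to 2 genes per list and direction outside the set; a few results under this rule are not reported here. A signal at or under the highest unspiked control (4.1 to 6.7 per array) gives only a bound. Correlations of same-numbered samples' deviations from their group means were -0.023 to 0.0063, so no shared replicate effect was seen. This cannot show whether same-numbered samples came from the same embryos, which the labels do not say. Pearson's r over tested probe sets was 0.987 for pairs of animal arrays, 0.981 to 0.983 for vegetal pairs and 0.889 to 0.895 across groups. The number of arrays limits the precision.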

Additional observations from a re-analysis of the deposited data

How the results depend on the processing

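With the deposited values, 2177 of 8026 tested genes were called animal and 1905 vegetal, and 121 genes formed the set, with a median difference of 1.86 (log2, animal minus vegetal). Centring on array medians gave 1192 animal and 3283 vegetal calls, 71 genes meeting the thresholds and a median of 1.59 for the set. Scaling to the spiked controls gave 2785 animal and 824 vegetal calls, 190 genes meeting the thresholds and a median of 2.10. Quantile normalization gave 97 genes. The animal share of the calls was 53.3% with the deposited values, 48.6% with quantile normalization, 26.6% with median centring and 77.2% with spiked-control scaling. The cause of these shifts was not tested. Leaving out 1 array at a time gave 1838 to 2102 animal and 1654 to 1794 vegetal calls, 117 to 133 genes meeting the thresholds, and a median of 1.86 to 1.92. When each gene took the mean over its probe sets, 116 of the 120 genes of the set then tested were called animal, beside 2120 of all 7913 tested. In that setting *exo1.S* turned to -0.41, since its second probe set ran the other way. With the lowest 60% left out, 113 of the set were tested and called animal, beside 1786 of all 6081 tested. Under the other alternatives all 121 were called. The rule chose the set on this contrast, so nothing is read from these counts. Of 47 named genes of the set, 27 moved beyond their replicate spread under median centring. None did without any 1 array, which was fixed, since leaving out 1 of 3 samples cannot shift a group mean beyond that spread.

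With the replicate number as a block, 2097 of 8026 tested genes were called animal and 1830 vegetal. All 121 of the set were called, from which nothing is read. The labels give the samples only a shared number, so whether they are pairs is not known.

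A vegetal signal at the unspiked controls gives only a lower bound for a fold, and whether probe sets of near-identical copies bind each other's RNA was not tested.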

Other observations

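Gene symbols were not needed to meet both thresholds: 464 probe sets did so, of which 190 had 1 symbol, 2 had several and 272 had none here. The unnamed ones were 1.62% of the 16765 probe sets with no symbol, beside 1.23% of those with 1 symbol. Their median difference was 2.14 (log2, animal minus vegetal), 57 had at least 3 and the highest animal mean was 1878. For 9 of them no vegetal array was above the unspiked controls.

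In 41 further genes a probe set with a lower mean log2 intensity met both thresholds while the one that stood for the gene did not. A low vegetal signal lowers that mean over the 6 arrays, so such a probe set was not always the dimmer in animal samples. For the 3 genes below it had the higher animal mean, for example 1764 beside 1089 for *lsr.S*, whereas for others the animal mean was lower. *lsr.S*, a receptor of tricellular junctions, had a probe set with 1666.5, 1759.2 and 1865 on the animal arrays, against 49.7, 57.5 and 68.3 on the vegetal arrays, a difference of 4.92, whereas the probe set that stood for it differed by 0.36. *lsm2.L*, a subunit of the ring that binds U6 RNA, had one with 1162, 791.7 and 883.4 on the animal arrays, against 27.9, 56 and 42.2 on the vegetal arrays, a difference of 4.53 beside -0.10. *bet1l.S*, a SNARE of the Golgi complex, had one with 114.7, 108.8 and 102 on the animal arrays, against 5.3, 3.3 and 4 on the vegetal arrays. Only 1 of these vegetal values was above the unspiked controls, and the probe set that stood for *bet1l.S* differed by -1.77. These 3 genes were chosen after their values were seen.

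No 2 genes of the set were neighbours among protein-coding genes of the RefSeq table, in which all 121 were found. The number of such pairs to be expected was not worked out, so nothing is read from this.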
